A study of Mus musculus with 21 samples.

Results

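The genes described here encode the central scaffolds of the excitatory postsynaptic density and its most abundant kinase. The rows of the deposited count table with the symbols Dlg4, Shank1, Shank2, Shank3, Homer1, Homer2, Homer3, Camk2a and Camk2b were taken, which is 9 of 48474 rows. They were compared between genotypes in bulk RNAseq data from the neocortex of 21 mice, 10 rNLS8 mice (labelled TG) and 11 littermates (labelled WT). In rNLS8 mice, the NEFH promoter drives the tTA transactivator in neurons, which switches on a tetO transgene for human TDP-43 without its nuclear localization signal (TDP-43ΔNLS) once doxycycline is withdrawn. The WT littermates were monogenic controls, so they lacked the pair of transgenes that expression needs, and the lines were backcrossed to C57BL/6J. Mice of both genotypes had received 350 µg of a non-targeting control antisense oligonucleotide by intracerebroventricular injection of 10 µL at 17 to 19 weeks of age. The labels name the tissue as neocortex, whereas the methods of the study name brain cortex and a figure legend names hippocampus for rNLS8 cohorts. The mice were fed doxycycline at 200 mg/kg for a further 2 weeks and were sacrificed 3 weeks after its withdrawal. The mice fall into 2 batches, A (4 WT and 3 rNLS8 mice) and B (7 WT and 7 rNLS8 mice), which are called cohorts here. They are not the numbered cohorts of the figure legend, where 11 wildtype and 10 rNLS8 mice form a single cohort.

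The postsynaptic density is a protein meshwork under the membrane of excitatory synapses that holds glutamate receptors in place. PSD-95, encoded by Dlg4, sits closest to the membrane, Shank proteins form the deeper layer, and Homer proteins link Shank to group I metabotropic glutamate receptors and to calcium channels of the endoplasmic reticulum. CaMKII, a holoenzyme built from subunits such as those encoded by Camk2a and Camk2b, is activated by calcium and calmodulin and is required for long-term potentiation in forebrain excitatory neurons.

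Total counts per mouse were between 20700912 and 22263809, so that 3 counts corresponded to between 0.135 and 0.145 CPM (counts scaled to the total of a library). Genes were tested by edgeR's quasi-likelihood test, which included cohort as a covariate, and p-values were adjusted (Benjamini-Hochberg) over the 19052 genes that passed its filter on low counts, and all 9 genes were among them. Counts of Tardbp, the mouse gene of TDP-43, were used to check the labels, although the transgene is human, the mouse gene has another row for a copy, and these counts do not measure the transgene. WT mice had between 2254 and 2829 normalized counts of Tardbp, the 7 rNLS8 mice of cohort B had at least 4403, and the 3 rNLS8 mice of cohort A had 2362, 2901 and 3084. The lowest of these, rNLS8 replicate 9, was within the WT range. Results are therefore also given without it and without rNLS8 replicate 8 of the same cohort, whose TMM factor of 1.07 was the largest of all mice. The excitatory cortical neuron marker Slc17a7 was abundant in mice of both genotypes, and the Purkinje cell gene Pcp2 did not exceed 14.9 normalized counts in any mouse. The striatal genes Drd1 and Adora2a were present at up to 1623 and 1808 normalized counts, respectively, and varied widely between mice of the same genotype.

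Levels were first compared between the 9 genes as CPM per kilobase of annotated exon, a scale that allows for differences in length. The length was the union of all annotated exons of a gene, which can exceed the transcripts expressed. The order of the genes depends on these lengths. Camk2a was the most abundant by far, with 520 ± 77.3 CPM per kilobase (SD, n = 11) in WT mice. Camk2b followed with 88.1 ± 10.3, Dlg4 with 55.5 ± 3.92 and Shank1 with 51.0 ± 8.92 CPM per kilobase in the same mice. Shank3 (31.8 ± 5.83) and Shank2 (20.1 ± 2.35) were lower, and Homer1 (11.8 ± 1.27), Homer2 (6.36 ± 1.0) and Homer3 (2.60 ± 0.729) were the lowest of these genes. Each gene exceeded the next one in this order in 11 of 11 WT mice, apart from Dlg4, which was above Shank1 in 8 of 11 WT mice and in 3 of 10 rNLS8 mice. The level of Dlg4 and its place in this order are uncertain, because the table has another row for a copy of this symbol. That row held between 0.878 and 1.03 times as many counts, and reads could have been assigned to either row. In the rNLS8 mice the means were 345 ± 43.1 CPM per kilobase for Camk2a and 69.6 ± 5.42 for Camk2b (SD, n = 10). The order below them was otherwise retained, with Homer2 above Homer3 in 9 of 10 rNLS8 mice.

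In rNLS8 mice, Camk2a, Camk2b, Dlg4, Homer1 and Homer2 fell and Homer3 rose, whereas Shank1, Shank2 and Shank3 did not pass the test. These were 5 of 9 genes lower, against 21.2% of all genes tested, and 1 of 9 higher, against 22.4%. None of the 9 genes had every rNLS8 mouse above every WT mouse, against 3.71% of all genes tested. Taking both directions together, 43.6% of all genes tested differed between the genotypes. The median log2 fold change of the 9 genes was -0.31 and that of all genes tested was -0.002. In 2 of the 9 genes, Camk2a and Camk2b, every rNLS8 mouse was below every WT mouse, which was the case for 3.67% of all genes tested.

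**Figure D1:**
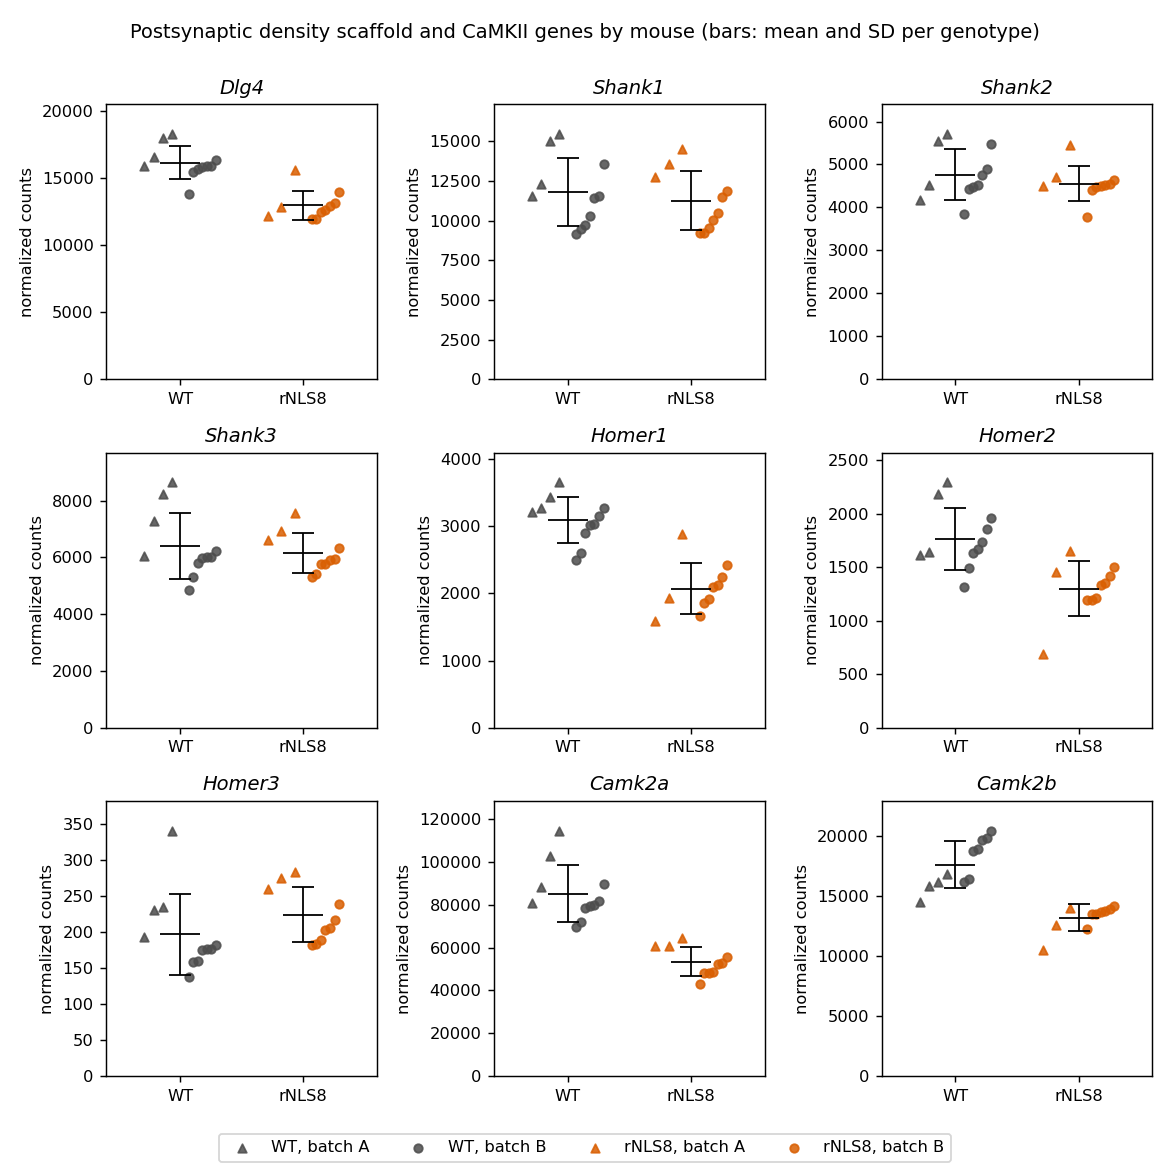
Normalized counts (vertical axes, starting at 0) of the 9 genes in each of 11 WT mice (grey) and 10 rNLS8 mice (orange), with cohort A as triangles and cohort B as circles. Horizontal bars are the mean and SD per genotype. The genotypes do not overlap for Camk2a and Camk2b, and overlap widely for Shank1, Shank2 and Shank3.

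Camk2a encodes the alpha subunit of CaMKII and lies on chromosome 18 of GRCm38 from 60925618 to 60988152 on the plus strand. WT mice had 69784 normalized counts at the lowest, 80852 at the median and 114633 at the highest, and rNLS8 mice had 43107, 52439 and 64589. The 10 rNLS8 mice were all below the lowest WT mouse. Camk2a decreased, with a log2 fold change of -0.65 (SE, the standard error, 0.058, 95% confidence interval -0.77 to -0.53, adjusted p = 2.84e-09 by edgeR), which means that its level fell by 36.4%. It fell in the mice of cohort A (log2 fold change -0.62, adjusted p = 0.0217) as well as in those of cohort B (-0.67, adjusted p = 1.72e-07), and without rNLS8 replicates 8 and 9 the value was -0.66.

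Camk2b encodes the beta subunit, which binds F-actin and anchors the holoenzyme in spines, and lies on chromosome 11 from 5969644 to 6066362 on the minus strand. The lowest, median and highest WT mice had 14538, 16805 and 20457 normalized counts, and the respective rNLS8 mice had 10514, 13599 and 14189. The highest rNLS8 mouse was thus just below the lowest WT mouse, and that WT mouse belonged to cohort A. Camk2b had a log2 fold change of -0.43 (SE 0.052, 95% confidence interval -0.53 to -0.32, adjusted p = 4.18e-07 by edgeR) and fell by 25.6%. Cohort A by itself did not reach the threshold (-0.33, adjusted p = 0.112). In cohort B alone the log2 fold change was -0.47 (adjusted p = 1.56e-06).

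Dlg4 encodes PSD-95, the membrane-associated guanylate kinase that tethers AMPA receptors through their auxiliary subunits and binds NMDA receptors directly. It lies on chromosome 11 from 70016942 to 70047522 on the plus strand. WT mice had between 13782 and 18285 normalized counts with a median of 15897, and rNLS8 mice had between 11930 and 15609 with a median of 12694. The groups overlapped, with 8 of 10 rNLS8 mice below every WT mouse and rNLS8 replicate 9 the highest of its genotype. Dlg4 had a log2 fold change of -0.31 (SE 0.046, 95% confidence interval -0.40 to -0.21, adjusted p = 7.26e-06 by edgeR) and fell by 19.3%. The row of its copy gave the same log2 fold change of -0.31 (adjusted p = 5.24e-06), as did the sum of both rows (adjusted p = 4.34e-06). In cohort A alone the change was of the same size (-0.32) but the adjusted p-value of 0.127 missed the threshold.

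Homer1 encodes the main Homer protein of the forebrain, whose long forms couple through a coiled coil and whose short form Homer1a, induced by neuronal activity, competes with them. The count per gene does not separate these isoforms. Homer1 lies on chromosome 13 from 93299635 to 93405129 on the plus strand. WT mice had 2493 normalized counts at the lowest, 3152 at the median and 3655 at the highest, against 1591, 2011 and 2883 in rNLS8 mice. Of the rNLS8 mice, 9 of 10 were below every WT mouse, and the exception was rNLS8 replicate 10 of cohort A. Homer1 had a log2 fold change of -0.57 (SE 0.083, 95% confidence interval -0.74 to -0.40, adjusted p = 4.98e-06 by edgeR) and fell by 32.5%. It fell in cohort A (-0.65, adjusted p = 0.0335) and in cohort B (-0.52, adjusted p = 2.46e-05), and the log2 fold change was -0.46 without rNLS8 replicates 8 and 9 (adjusted p = 1.21e-05).

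Homer2 encodes a long Homer protein with the same domain layout and lies on chromosome 7 from 81600481 to 81707527 on the minus strand. The lowest, median and highest WT mice had 1317, 1670 and 2294 normalized counts, and the respective rNLS8 mice had 692, 1342 and 1654. The groups overlapped, as only 4 of 10 rNLS8 mice were below every WT mouse, and the lowest value belonged to rNLS8 replicate 9. The log2 fold change of Homer2 was -0.43 (SE 0.11, 95% confidence interval -0.66 to -0.20, adjusted p = 0.00287 by edgeR). Without rNLS8 replicate 9 the log2 fold change was -0.33 (adjusted p = 0.000864). The test of cohort B by itself passed the threshold for Homer2 (-0.35, adjusted p = 0.00169), whereas that of cohort A did not (-0.59, adjusted p = 0.153).

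Homer3, the third Homer gene, lies on chromosome 8 from 70282827 to 70294361 on the plus strand and had the lowest counts of the 9 genes. WT mice had between 138 and 340 normalized counts with a median of 176, and rNLS8 mice had between 182 and 283 with a median of 211. No rNLS8 mouse was above the highest WT mouse, which belonged to cohort A. In cohort B 7 of 7 rNLS8 mice were above every WT mouse of that cohort. The share of all genes with such a separation within a single cohort was not computed. Homer3 rose, with a log2 fold change of 0.23 (SE 0.082, 95% confidence interval 0.06 to 0.40, adjusted p = 0.0244 by edgeR). It was past the threshold in cohort B by itself (0.28, adjusted p = 0.0106) and not in cohort A (0.16, adjusted p = 0.62), and the call was lost without cohort in the model (0.19, adjusted p = 0.26). Ddx49, an RNA helicase gene that overlaps Homer3 on the opposite strand, rose as well, from 460 ± 25.5 to 618.5 ± 79.9 normalized counts (SD, log2 fold change 0.43, adjusted p = 3.06e-06 by edgeR). Whether counting used strand is not given in the sources used here, so reads of Homer3 and Ddx49 could not be told apart where they overlap.

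Shank1, Shank2 and Shank3 encode the large multidomain scaffolds that connect the upper layer of the density to Homer and the actin cytoskeleton. Shank1 (chromosome 7, 44310253 to 44360572) had between 9147 and 15464.5 normalized counts in WT mice (median 11534) and between 9248 and 14494.5 in rNLS8 mice (median 10975). Shank2 (chromosome 7, 144001928 to 144424494) had between 3850 and 5712 in WT mice (median 4533) and between 3786 and 5456 in rNLS8 mice (median 4519). Shank3 (chromosome 15, 89499623 to 89560261) had between 4864 and 8651 in WT mice (median 6022) and between 5311 and 7584 in rNLS8 mice (median 5922). For all 3 genes the ranges of the genotypes lay within or nearly within each other, and only 1 rNLS8 mouse was below the WT range, for Shank2.

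The log2 fold changes of the Shank genes were -0.04 for Shank1 (SE 0.070, adjusted p = 0.653), -0.06 for Shank2 (SE 0.062, adjusted p = 0.484) and -0.03 for Shank3 (SE 0.057, adjusted p = 0.726), and all 3 were slightly above 0 if libraries were scaled only by their total counts. Their 95% confidence intervals ran from -0.19 to 0.10 for Shank1, from -0.18 to 0.07 for Shank2 and from -0.15 to 0.09 for Shank3. The point estimates for Camk2a, Camk2b, Dlg4, Homer1 and Homer2 were below the lower end of each of these intervals. A gene antisense to Shank3, Gm15609, had a log2 fold change of -0.51 (SE 0.15, adjusted p = 0.00805 by edgeR), from 42.9 ± 15.2 normalized counts (SD) in WT mice, which is small beside the counts of Shank3. A gene antisense to Shank1 (1700008O03Rik) and 1 of the 2 antisense to Shank2 (Gm14372) had 15.6 ± 5.09 and 11.4 ± 4.31 normalized counts (SD) in WT mice and were not past the threshold, and the other, Gm44999, was not analysed here.

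**Figure D2:**
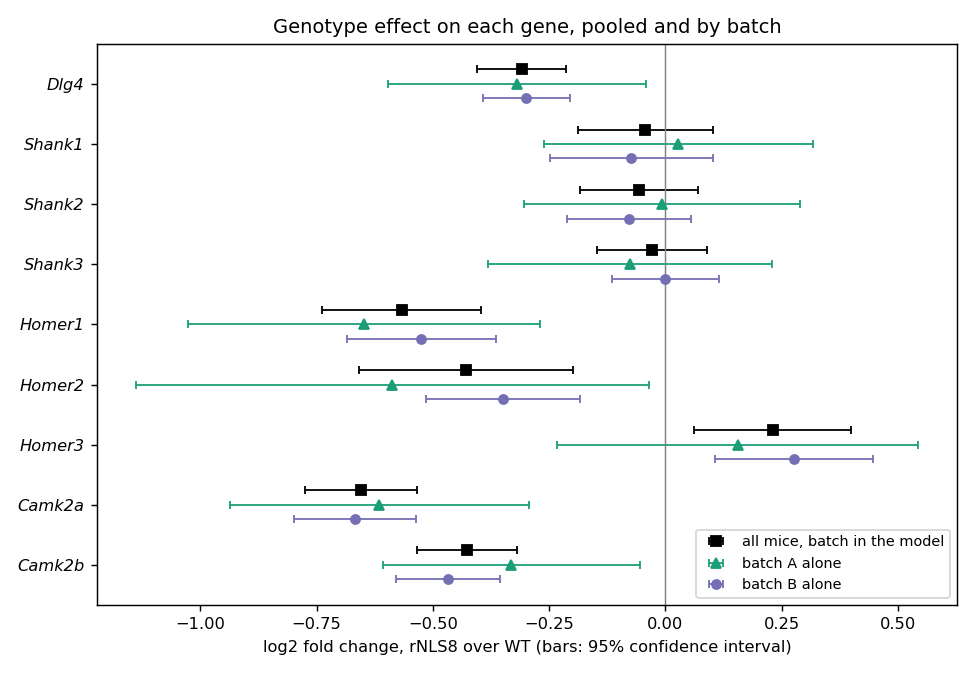
Log2 fold change of rNLS8 over WT mice for each of the 9 genes (horizontal axis) with all mice and cohort in the model (black squares), in cohort A alone (green triangles) and in cohort B alone (purple circles). Bars are 95% confidence intervals. Camk2a, Camk2b, Dlg4, Homer1 and Homer2 sit below 0 in both cohorts, and intervals of cohort A, with 4 WT and 3 rNLS8 mice, are the widest.

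The bases before the transcription start are shown for 3 of these genes, Homer1 and Camk2b as genes that fell and Shank3 as one that did not pass the test. They were read from the RefSeq promoter windows for GRCm38.p6, which hold 250 bases before and 50 bases after a start and were found for 6 of the 9 genes. Capitals mark TGACG, the core of the cAMP response element (CRE), in Homer1 and GGGCGG, the GC box, in Camk2b and Shank3, on either strand, so that the reverse complements CGTCA and CCGCCC count as well. The 250 bases before the start lie at chr13:93303507-93303756 (plus strand) for Homer1, chr11:6065749-6065998 (minus strand) for Camk2b and chr15:89499358-89499607 (plus strand) for Shank3, and none of them overlaps an annotated exon.
Homer1: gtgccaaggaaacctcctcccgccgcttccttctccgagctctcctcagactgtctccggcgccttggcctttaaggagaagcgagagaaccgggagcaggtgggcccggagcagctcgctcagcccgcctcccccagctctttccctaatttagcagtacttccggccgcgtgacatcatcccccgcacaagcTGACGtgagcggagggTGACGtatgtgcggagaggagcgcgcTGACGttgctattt
Camk2b: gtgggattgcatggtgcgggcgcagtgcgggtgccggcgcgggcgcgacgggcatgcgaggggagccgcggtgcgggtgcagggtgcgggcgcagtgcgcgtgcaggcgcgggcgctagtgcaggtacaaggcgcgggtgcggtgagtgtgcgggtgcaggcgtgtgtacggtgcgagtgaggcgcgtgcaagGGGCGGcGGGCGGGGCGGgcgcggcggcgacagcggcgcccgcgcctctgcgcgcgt
Shank3: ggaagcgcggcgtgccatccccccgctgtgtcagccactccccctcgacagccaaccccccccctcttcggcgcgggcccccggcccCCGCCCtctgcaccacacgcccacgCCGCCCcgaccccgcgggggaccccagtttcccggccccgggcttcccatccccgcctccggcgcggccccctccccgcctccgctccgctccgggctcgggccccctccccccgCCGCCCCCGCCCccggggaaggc

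Homer1 has 2 windows in the table, of which the first is shown. That one held 3 matches to TGACG and no GC box, while the second, with a GC content of 44.7%, held 0 of either, and 20.8% of all 32851 windows of this length held at least 1 such core. The Camk2b window held 3 GC boxes and the Shank3 window held 4, and 35.7% of all windows held at least 1. The full element TGACGTCA, present in 1.79% of all windows, was found in none of the windows of these genes, the other windows of Dlg4, Homer1, Homer2 and Homer3 included. The GC content of the windows shown was 63.0% for Homer1, 77.3% for Camk2b and 81.0% for Shank3, against a median of 52.7% over all windows. A GC box was thus held both by a gene that fell and by one that did not pass the test. These matches describe the letters in the windows, and binding was not measured.

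Whether the genotype effect differed between the cohorts was tested by the interaction of genotype and cohort. For the 9 genes, subtracting the effect in cohort B from that in cohort A gave values between -0.27 (Homer2) and 0.10 (Camk2b) on the log2 scale, with adjusted p-values of 0.893 and above in edgeR. None of the 9 genes was past the threshold, and neither was any other gene (0% of 19052), although 1059 genes (5.56%) were under 0.05 before adjustment and DESeq2 called 1. The lowest unadjusted p-value of the 9 genes was 0.263, and DESeq2 called 0 of them. Without rNLS8 replicates 8 and 9 the same 5 genes were lower and Homer3 was higher, with log2 fold changes of -0.43 for Camk2b, -0.32 for Dlg4, -0.32 for Homer2 and 0.26 for Homer3 (adjusted p = 0.0248). In cohort A alone 2 of 9 genes, Camk2a and Homer1, were lower and 0 were higher, against 4.83% and 6.99% of all genes tested there. In cohort B alone Camk2a, Camk2b, Dlg4, Homer1 and Homer2 were lower and Homer3 was higher, against 19.8% and 19.3% of all genes tested there (39.1% in both directions together).

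Between the cohorts, with genotype in the model, 5 of the 9 genes differed, against 22.6% of all genes tested. Homer3, Shank1, Shank3 and Camk2a were higher in cohort A by 0.51, 0.37, 0.35 and 0.30 on the log2 scale (adjusted p = 0.000197, 0.00103, 0.000328 and 0.00107 by edgeR). Camk2b was the one that was lower in cohort A (-0.19, adjusted p = 0.0191). For Shank1, Shank3 and Homer3, the difference between cohorts was thus larger in size than that between genotypes.

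To compare these genes independently of the scaling between libraries, ratios of raw counts were taken within each mouse for 4 pairs and compared by permuting genotype within cohort, with adjustment over the 4 pairs. Homer3 to Homer1 was 0.0437 at the lowest, 0.0605 at the median and 0.106 at the highest in WT mice, and 0.0817, 0.102 and 0.164 in rNLS8 mice. The rNLS8 ratio was higher by 0.83 on the log2 scale (permutation test, p = 1e-05, the smallest that these permutations can give, adjusted p = 4e-05), and 5 of 10 rNLS8 mice exceeded every WT mouse. In cohort B alone the difference was 0.80 (exact permutation test, adjusted p = 0.00233). In cohort A alone it was 0.88, but there the exact permutation test of 4 against 3 mice cannot give a two-sided p-value below 0.0571 and so cannot pass the threshold.

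Camk2a to Camk2b had a median of 4.87 in WT mice (3.41 to 7.08) and of 3.98 in rNLS8 mice (3.12 to 5.77), so that the groups overlapped widely. The difference of -0.22 on the log2 scale was just past the threshold (permutation test, adjusted p = 0.0499), and 2 of 10 rNLS8 mice were below every WT mouse. It was -0.20 in cohort B alone (exact permutation test, adjusted p = 0.113) and -0.26 in cohort A alone, where the test cannot pass. Leaving out any of 14 of the 21 mice moved it to the other side. For Homer2 to Homer1 (0.13, adjusted p = 0.256) and Shank2 to Shank3 (-0.03, adjusted p = 0.748) the permutation tests were not past the threshold. The ratios to Shank3 were chosen after the values had been seen and are given without a test. Camk2a to Shank3 was between 9.83 and 16.4 in WT mice and between 7.46 and 9.33 in rNLS8 mice. The groups did not overlap, as was already the case for Camk2a by itself. Homer1 to Shank3 was between 0.397 and 0.674 in WT mice and between 0.230 and 0.435 in rNLS8 mice, so that 7 of 10 rNLS8 mice were below every WT mouse. Dlg4 to Shank3 had medians of 2.62 in WT mice (1.93 to 2.91) and 2.17 in rNLS8 mice (1.605 to 2.48). The groups overlapped over all mice. In cohort B, WT mice were at 2.55 and above and rNLS8 mice at 2.48 and below, and no share over other pairs of genes was computed.

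**Figure D3:**
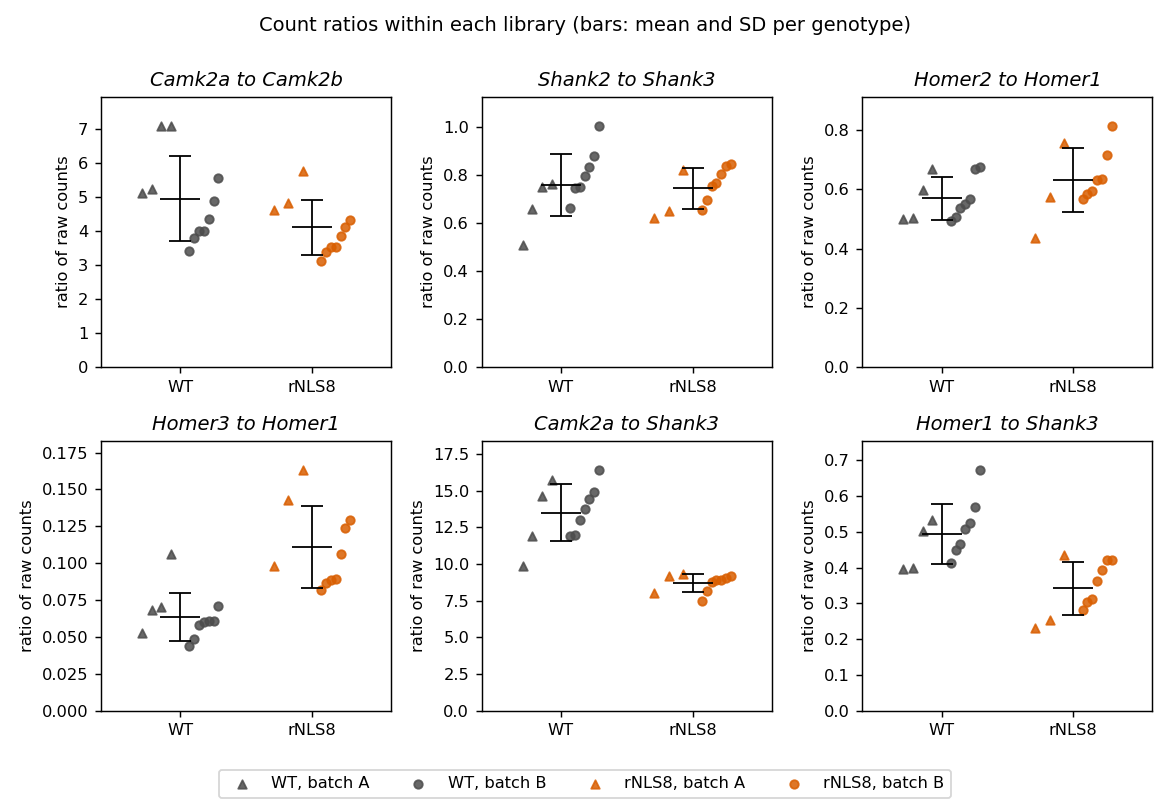
Ratios of raw counts within each library (vertical axes, starting at 0) for 6 pairs of genes in 11 WT mice (grey) and 10 rNLS8 mice (orange), with cohort A as triangles and cohort B as circles and bars for the mean and SD. Homer3 to Homer1 is higher in rNLS8 mice with overlap. The ratios to Shank3 were chosen after the values were seen, and Camk2a to Shank3 is lower without overlap, as Camk2a is by itself.

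Other genes of the postsynaptic density and of CaMKII signaling were read from lists in the same fit. Of 26 other scaffolds and adaptors of the density, 13 fell, against 21.2% of all genes tested, and 2 rose, against 22.4% (1 to 3 with each mouse left out, and 6 with scaling by library size only), with a median log2 fold change of -0.16 beside -0.002 over all genes tested. The relatives of Dlg4 were among those that fell. Dlg1 (SAP97) had a log2 fold change of -0.34, Dlg2 (PSD-93) of -0.36 and Dlg3 (SAP102) of -0.44, and for each of them 10 of 10 rNLS8 mice were below every WT mouse. The largest decreases were those of Cnksr2, a scaffold of Ras signaling (-0.58, adjusted p = 3.62e-07), and Lrrc7, which encodes densin-180 (-0.47, adjusted p = 0.00125). Dlgap3, whose product links PSD-95 to Shank, rose by 0.36 (adjusted p = 1.48e-05), and Grip1, a scaffold of AMPA receptors, rose by 0.13 (adjusted p = 0.0337 by edgeR). The groups did not overlap, with rNLS8 mice lower, for 6 of these 26 genes, against 3.67% of all genes tested.

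The 18 further genes of the calmodulin and CaM kinase system had a median log2 fold change of -0.55, with 12 genes that fell and 1 that rose, beside 21.2% and 22.4% of all genes tested. The groups did not overlap for 9 of those that fell, beside 3.67% of all genes tested. Camkk2 and Camk4, which encode the kinase kinase and the nuclear kinase of the CaMKIV pathway, had log2 fold changes of -1.20 (adjusted p = 1.29e-14) and -1.07 (adjusted p = 1.35e-11 by edgeR). The minor subunit gene Camk2d fell by 0.64 and Camk2g by 0.14, while Camk2n1, which encodes an endogenous CaMKII inhibitor, fell by 0.72. Calcineurin, the phosphatase that opposes CaMKII, was lower in its catalytic subunit genes Ppp3ca (-0.76) and Ppp3cb (-0.86) and in its regulatory subunit gene Ppp3r1 (-0.87). Nrgn, whose product neurogranin binds calmodulin, fell by 0.72, with 9 of 10 rNLS8 mice below every WT mouse. Calm3, a gene of calmodulin, rose by 0.29, and Calm2 was not past the threshold (-0.11, adjusted p = 0.0649). These genes encode the same protein, and their levels are uncertain where similar sequences share reads.

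The shares of 21.2% lower and 22.4% higher among all genes tested also apply to the next 3 lists. Of 11 binding partners of Homer, 6 fell and 0 rose, with a median log2 fold change of -0.17. Itpr1, the inositol trisphosphate receptor of the endoplasmic reticulum, fell by 0.76 (adjusted p = 1.05e-08) and Agap2, the gene of PIKE, by 0.54 (adjusted p = 2.73e-09 by edgeR). The metabotropic glutamate receptor gene Grm5 (-0.17, adjusted p = 0.192) was not past the threshold. Of 10 genes of spine actin, 6 fell and 0 rose (median -0.21), among them Wasf1, the WAVE1 subunit of the Arp2/3 activating complex (-0.65), and Ppp1r9a, the gene of neurabin (-0.56). Of 10 postsynaptic adhesion genes, 5 fell and 2 rose (median -0.14), the latter near the share among all genes tested, with Lrrtm3 (-0.44) and Slitrk1 (-0.42) at one end and Lrfn2 (0.47) and Nlgn3 (0.17) at the other. Without cohort in the model, 3 of these 10 genes fell in edgeR and also in DESeq2.

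**Figure D4:**
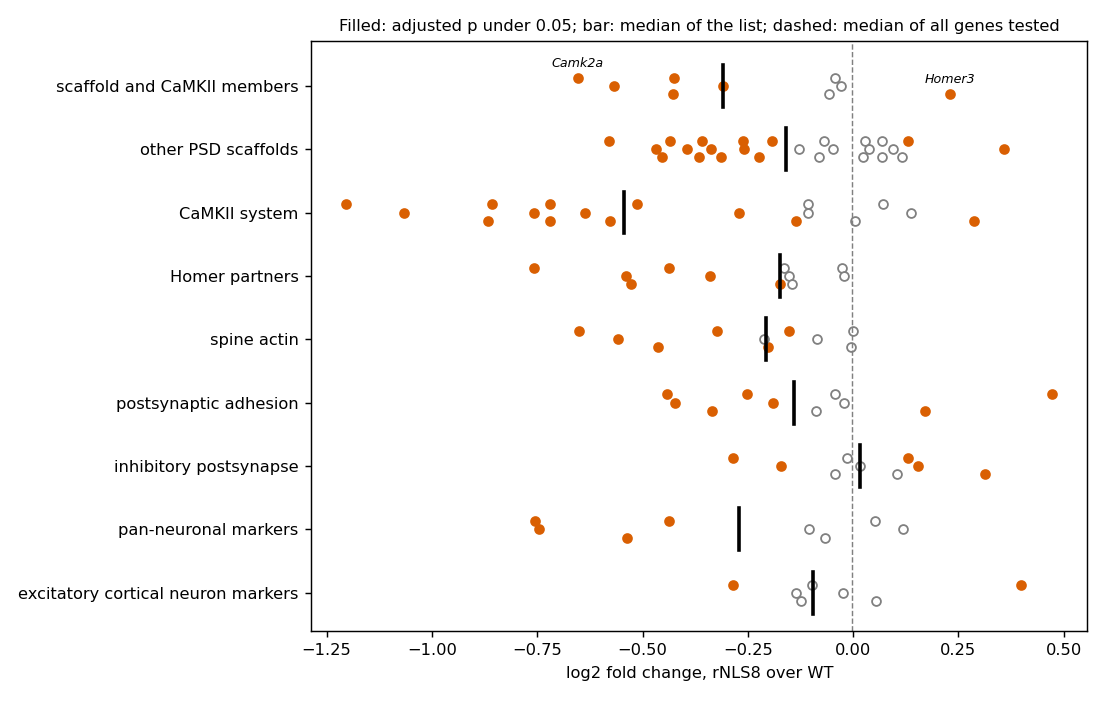
Log2 fold change of rNLS8 over WT mice (horizontal axis) for every tested gene of the 9 scaffold and CaMKII genes and of 8 related lists (vertical axis). Filled points had an adjusted p-value under 0.05, thick bars are the median of a list (-0.31 for the 9 genes, -0.55 for the CaMKII system), and the dashed line is the median over all genes tested.

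Markers of cell types were read beside these results, because in bulk tissue fewer cells of a type and less RNA per cell cannot be told apart. All counts of markers are to be read against the 21.2% lower and 22.4% higher of all genes tested, and with lists this short several of them are near these shares. Of 8 pan-neuronal markers, 4 fell and 0 rose (median log2 fold change -0.27). Snap25 (-0.76), Elavl4 (-0.75), Syt1 (-0.54) and Map2 (-0.44) fell, whereas Rbfox3 (-0.10), Tubb3 (-0.07), Eno2 (0.05) and Uchl1 (0.12) were not past the threshold. The summed level of the 8 markers was between 123387 and 155915 normalized counts in WT mice and between 92620 and 116456 in rNLS8 mice. Of 7 markers of excitatory cortical neurons, Neurod6 fell (-0.29), 1 rose and 5 were not past the threshold (median -0.10), including Slc17a7 (0.05, adjusted p = 0.575). The summed level of the 7 markers was between 31550 and 46634 normalized counts in WT mice and between 33639 and 52746 in rNLS8 mice. All 3 inhibitory neuron markers fell (median -0.35), such as Gad1 (-0.45) and Slc32a1 (-0.35), with a summed level of 9225 to 18359 in WT mice and of 6611 to 13157 in rNLS8 mice. The part of these differences in the decrease of Camk2a, Camk2b, Dlg4, Homer1 and Homer2 was not tested.

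Glial, vascular and regional markers were read in the same way. Of 6 microglia markers, 4 rose and 1, P2ry12 (-0.35), fell, with a median of 0.16 and with C1qa (0.62) and Aif1 (0.47) highest. Their summed level was between 5067 and 5945 normalized counts in WT mice and between 5079 and 7553 in rNLS8 mice. Of 6 astrocyte markers, 4 fell and 1, Gfap (1.03), rose (median -0.16), with Gja1 (-0.28) and Aqp4 (-0.26) lowest and summed levels of 25351 to 31914 in WT and of 24781 to 36456 in rNLS8 mice. None of the 6 oligodendrocyte markers was past the threshold in edgeR, and 0 of them had an unadjusted p-value under 0.05 (median 0.07), with summed levels of 49644 to 80975 in WT and of 48261 to 87000 in rNLS8 mice. Of 5 endothelial markers, Ly6c1 rose (0.25) and Flt1 fell (-0.18), with a median of -0.03 and summed levels of 3779 to 4419 in WT and of 3239 to 4189 in rNLS8 mice. Of 5 markers of other brain regions 4 were tested, and Slc17a6 (-0.74) and Drd1 (-0.66) fell (median -0.53). Their summed level was between 1093 and 4400 normalized counts in WT mice and between 1036 and 3464 in rNLS8 mice.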

How the data were processed

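Bulk RNAseq counts of neocortex from 21 mice were used as deposited. According to the methods and the labels, RNA with RIN above 7 was sequenced at BGI and aligned to mm10 (GRCm38). The submitters' processing notes name HISAT, HISAT2, Bowtie, Bowtie2 and RSEM. Their roles, the counting program and the use of strand are not given in the sources used here. The authors deposited whole counts per gene symbol without normalization, in 48474 rows, of which 13329 had no count and 2553 were copies of a symbol (4.11% of counts).

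edgeR 4.0.16 in R 4.3.3 was used on these counts (filter by expression on genotype and batch with a minimum count of 10 and a minimum total of 15, TMM, quasi-likelihood test with batch, threshold 0.05). Standard errors were the log2 fold change divided by the root of the F statistic. For normalized counts, each count was scaled to the mean of the effective library sizes. Reads carried no molecular identifiers, so the limit of 3 counts covers counting error only. Ratios were tested with 100000 two-sided permutations within batch. Exon lengths were unions of GENCODE exons on GRCm38.

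Alternatives were DESeq2 1.42.0 with and without batch, edgeR without batch, library size only, upper quartile, a minimum of 10 counts per mouse, all genes with a count, single batches, Xist as covariate, copy rows left out and each mouse left out. Summing Dlg4 with its copy, leaving out rNLS8 replicates 8 and 9 and the ratios to Shank3 were chosen after seeing the data. The genes, lists and tests were chosen with earlier results of these data known. All 9 genes were named, and in each other list the 2 largest rises and falls past the threshold, leaving out genes under 50 counts on average. Some genes are not reported here. Further names were chosen after their values were seen. The tests were checked on simulated counts.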

Additional observations from a re-analysis of the deposited data

Results flagged for a closer look

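Each of the 9 genes and 4 ratios was examined with Dixon's ratio for a distant value among the 10 rNLS8 mice (13 groups of values, of which chance gives about 1 in 20). For Homer2, the gap of the lowest mouse, rNLS8 replicate 9 of cohort A, to the next mouse was 0.517 of the whole range, above the critical value of 0.466. This mouse had 692 normalized counts of Homer2 and was also the highest rNLS8 mouse for Dlg4. Without it, Homer2 had a log2 fold change of -0.33 in place of -0.43 and stayed past the threshold (adjusted p = 0.000864 by edgeR). No other value of these genes met the criterion.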

How the results depend on the processing

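No paired analysis was possible because the labels carry no replicate numbers that mice of different genotypes share. With each mouse left out in turn, 5 of the 9 genes were lower and 1 was higher in every one of the 21 fits. The genes past the threshold then numbered between 4080 and 4337 higher and between 3815 and 4177 lower, those of the other lists between 12 and 17 higher and between 55 and 61 lower, and the interaction between 0 and 1 genes. The log2 fold changes were between -0.0666 and -0.0003 for Shank1, -0.08 and -0.03 for Shank2, and -0.05 and -0.004 for Shank3. The log2 ratio of Camk2a to Camk2b was between -0.26 and -0.18 and that of Shank2 to Shank3 between -0.0713 and 0.0089. The interaction, as cohort A minus cohort B, was between -0.057 and 0.112 for Camk2a, -0.168 and 0.0186 for Dlg4, -0.434 and 0.0175 for Homer1, -0.506 and 0.027 for Homer2, -0.26 and 0.0323 for Homer3, -0.0017 and 0.137 for Shank1, and -0.048 and 0.11 for Shank2.

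Scaling by library size only called 5935 genes higher and 2797 lower, so that 68.0% of calls were higher in place of 51.3%, and 24 genes of the other lists were higher. It gave log2 fold changes of 0.0357 for Shank1, 0.0213 for Shank2 and 0.05 for Shank3. Without cohort in the model, edgeR and DESeq2 each called 0 of the 9 genes higher. Cohort A alone called 1298 genes higher and 897 lower, 0 of the 9 genes higher and 2 lower, and 5 genes of the other lists higher and 23 lower. There, Shank1 was at 0.0277, Shank2 to Shank3 at 0.0655, Camk2a to Camk2b at -0.26 and Homer3 to Homer1 at 0.88 on the log2 scale, and the tests of ratios in cohort A could not pass the threshold. In cohort B alone Shank3 was at 0.0002 and Camk2a to Camk2b at -0.20, and the latter was at -0.25 with genotype permuted over all mice (adjusted p = 0.16). The interaction called 1 gene in DESeq2 and 2 genes without rNLS8 replicates 8 and 9. The latter leaves rNLS8 replicate 10 as the single rNLS8 mouse of cohort A, which is assumed to vary like the other groups, and the values were 0.28 for Homer1, 0.12 for Homer2 and -0.0106 for Camk2a. The cause of these differences was not tested. For cohort A, the smaller number of mice cannot be told apart from its other differences to cohort B. Over these alternatives the genes that rose numbered 1 to 6 for other scaffolds, 0 to 3 for the CaMKII system, 1 to 2 for adhesion and 0 to 4 for the inhibitory postsynapse. Those that fell numbered 5 to 15 for other scaffolds, 9 to 14 for the CaMKII system and 2 to 6 for Homer partners. They numbered 2 to 7 for spine actin, 1 to 5 for adhesion and 0 to 2 for the inhibitory postsynapse. With the other alternatives, the 9 genes kept their side of the threshold.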

Other observations

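The inhibitory postsynapse, which is built on gephyrin, was read as a contrast to the excitatory scaffolds. Of its 9 genes 3 rose and 2 fell, against 22.4% higher and 21.2% lower of all genes tested, so these counts were near the background. The median log2 fold change was 0.02, and the groups overlapped for each of the 9 genes (3.71% and 3.67% of all genes tested did not overlap, higher and lower). Iqsec3, an exchange factor bound to gephyrin, had between 4520 and 6089 normalized counts in WT mice and between 5650 and 7251 in rNLS8 mice, and rose by 0.31 on the log2 scale (adjusted p = 7.41e-06 by edgeR). Slitrk3, an adhesion protein of inhibitory synapses, rose by 0.15 (adjusted p = 0.019). Insyn1, a component of inhibitory synapses, fell by 0.17 (adjusted p = 0.00232). Gphn itself was not past the threshold (-0.04, adjusted p = 0.345 by edgeR), and neither was Nlgn2 (0.11, adjusted p = 0.153). A difference between this list and the excitatory scaffolds was not tested.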
